A study of Columba livia with 6 samples.

Results

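The genes described here were DAZL, DDX4, NOBOX, ZAR1 and KPNA7, which are regulators of germ cells and oocytes. They were found in the expression table by gene symbol, counting each symbol of a locus that carried several. The 5 genes had 6 loci, out of 34346 loci in the table, and all 6 were among the 28274 loci tested. The libraries came from ovaries of Columba livia, the domestic pigeon, taken from sexually mature females 2 years old. The ovaries HP1, HP2 and HP3 came from 3 birds with high egg production, and they were set against LP4, LP5 and LP6 from 3 birds with low egg production. Per the study's methods, the birds were the extremes of laying in 1 flock, shared a genetic background and were kept as caged pairs, so each group holds birds picked by their laying record and not a treatment. Ovary samples were sequenced after removal of ribosomal RNA. The study's methods do not say whether each ovary was taken whole or in part. In such bulk samples, fewer cells of a type and less RNA per cell cannot be told apart.

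DAZL and DDX4 encode RNA-binding proteins of the germ line. DAZL binds the untranslated ends of messenger RNAs and regulates their translation, and DDX4, known as vasa, is an RNA helicase of germ granules that also marks germ cells in chicken. NOBOX is a homeobox transcription factor needed in mouse for the growth of early follicles. ZAR1 is a maternal protein, known in mouse, that binds messenger RNAs stored in the oocyte and is needed for the passage from egg to embryo. KPNA7 is an importin alpha of oocytes and early embryos in mammals, which carries proteins into the nucleus. In a bird ovary, oocytes lie inside follicles with granulosa and theca layers, which are set in a stroma with vessels and smooth muscle.

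Each ovary gave a total of 97875183 to 108669967 counts. Levels are given as CPM, the counts per 1000000 counts of the library, with library sizes scaled by TMM factors of 0.987 to 1.016. The egg coat gene ZP2 and the granulosa gene FOXL2 were detected in all 6 ovaries, ZP2 at 528 to 872 CPM. Among the 6 loci only the smaller DDX4 locus had low counts, so the precision was set by the differences between birds. The p-values for HP against LP below set the group difference against the spread between birds within the groups.

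The loci differed in how cleanly they stood for the gene. Positions are on Cliv_1.0. DAZL (MSTRG.9630) lay on the minus strand of scaffold NW_004973322.1 from 1438090 to 1455671, with 5 reference transcripts and 1 assembled transcript, and overlapped no other locus. KPNA7 (MSTRG.9770) lay on the plus strand of NW_004973324.1 from 2054630 to 2062799, with 1 reference transcript and 6 assembled ones. DDX4 was split. Its main locus (MSTRG.4422), with 7 reference and 2 assembled transcripts, lay on the plus strand of NW_004973244.1 from 3037044 to 3071144. A further DDX4 locus (MSTRG.4423), made of 1 assembled transcript, ran on the same strand from 3045536 to 3075188 and overlapped the main locus by 25609 bases, so reads could have been divided between the loci.

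NOBOX and ZAR1 each shared a locus with another gene, and their levels cannot be told apart from it. The NOBOX locus (MSTRG.19579) carried the symbols ARHGEF5 and NOBOX, spanned 1855924 to 1911366 on the plus strand of NW_004973623.1, and held 1 reference transcript and 9 assembled ones. Its description in the table is that of ARHGEF5, a guanine nucleotide exchange factor. The ZAR1 locus (MSTRG.4926) carried the symbols ZAR1 and SLC10A4, spanned 4432436 to 4442898 on the minus strand of NW_004973253.1, and held 1 reference transcript and 2 assembled ones. Its description is that of SLC10A4, a member of the bile acid cotransporter family. In the RefSeq gene table ZAR1 lies between SLC10A4 and FRYL. The ZAR1 locus overlapped FRYL on the opposite strand by 3934 bases, and whether the counting used the strand is not given in the sources used here. FRYL itself had 227, 224 and 215 CPM in HP1, HP2 and HP3, against 194, 220.1 and 230.2 CPM in LP4, LP5 and LP6. These values cover the whole FRYL locus, and whether its reads entered the ZAR1 locus was not tested.

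None of the 6 loci differed between HP and LP ovaries at an adjusted p under 0.05, which 0.0106% of the tested loci did by edgeR's quasi-likelihood test. DESeq2 and limma also called 0 of the 6. None had an unadjusted p under 0.05 with edgeR, against 8.24% of the tested loci. All 6 fitted log2 fold changes of HP over LP were above 0, against 49.0% of the tested loci. Their median was 0.22, against -0.01 for all tested loci. The 6 signs are not independent, since they come from the same ovaries and DDX4 counts at 2 loci. The genes were also chosen with earlier results of these data known. At DAZL and the smaller DDX4 locus the sign changed when some single ovaries were left out. Groups did not overlap at 2 of the 6 loci, NOBOX and ZAR1, with HP higher at both. Of the tested loci, 14.6% had groups that do not overlap, 7.38% with HP higher and 7.17% with HP lower. The ZAR1 locus had a log2 ratio of mean FPKM of 1.06. With edgeR none of the 6 loci combined an absolute ratio of at least 1 with an unadjusted p under 0.05. Of the tested loci 3.11% did. With DESeq2 the ZAR1 locus met both limits (unadjusted p = 0.046, adjusted p = 0.445), as did 1028 loci in all. The smallest two-sided p that an exact permutation test of 3 against 3 can give is 0.1.

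DAZL had 72.2, 159 and 108 CPM in HP1, HP2 and HP3, against 141, 55.4 and 104 CPM in LP4, LP5 and LP6. The groups overlapped through their whole range: HP2 was the highest ovary, LP4 followed it, and LP5 was the lowest. The means were 113 ± 43.5 CPM in HP ovaries and 100.1 ± 43.0 CPM in LP ovaries (SD, n = 3 each). The log2 fold change was 0.18 with an SE of 0.40 and a 95% interval of -0.78 to 1.13 (adjusted p = 0.925, edgeR). This interval holds both a lower and a higher level in HP ovaries, and the sign turned to -0.15 without HP2 and to -0.12 without LP5.

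The main DDX4 locus had 47.4, 62.0 and 77.9 CPM in HP1, HP2 and HP3, against 54.5, 35.1 and 45.3 CPM in LP4, LP5 and LP6. HP2 and HP3 lay above every LP ovary, and HP1 lay below LP4. DDX4 averaged 62.5 ± 15.2 CPM in HP ovaries and 45.0 ± 9.73 CPM in LP ovaries (SD, n = 3 each), 1.39-fold higher in HP with a 95% interval of 0.946 to 2.04. The log2 fold change was 0.47 with an SE of 0.23 (adjusted p = 0.634, edgeR). It stayed above 0 without any 1 ovary, between 0.28 and 0.64.

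The DDX4 locus of 1 assembled transcript held few counts, with 156, 115 and 93 in HP1, HP2 and HP3, against 78, 151 and 110 in LP4, LP5 and LP6. This was 1.42, 1.14 and 0.887 CPM in the HP ovaries, against 0.804, 1.52 and 1.03 CPM in the LP ovaries. It was highest in LP5, the ovary where the main DDX4 locus was lowest. The log2 fold change of 0.04 (SE 0.35, adjusted p = 0.982, edgeR) had no stable sign, with values between -0.15 and 0.33 when 1 ovary was left out.

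The NOBOX locus, shared with ARHGEF5, was the steadiest of the 6. It had 126, 134 and 134 CPM in HP1, HP2 and HP3, against 119.6, 109 and 123 CPM in LP4, LP5 and LP6. Every HP ovary lay above every LP ovary, and the step between the lowest HP ovary and the highest LP ovary was small. The means were 131 ± 4.61 CPM in HP ovaries and 117 ± 7.04 CPM in LP ovaries (SD, n = 3 each), 1.12-fold higher in HP with a 95% interval of 0.956 to 1.31. The log2 fold change was 0.16 with an SE of 0.09 (adjusted p = 0.677, edgeR), and the exact permutation p was 0.1.

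The ZAR1 locus, shared with SLC10A4, had the largest fold change of the 6. Its counts were 4103, 6318 and 5980 in HP1, HP2 and HP3, against 3480, 745 and 3695 in LP4, LP5 and LP6. This was 37.2, 62.6 and 57.0 CPM in the HP ovaries, against 35.9, 7.51 and 34.4 CPM in the LP ovaries. LP5 was far below the other ovaries, and HP1 stood close to LP4 and LP6. The means were 52.3 ± 13.3 CPM in HP ovaries and 25.9 ± 16.0 CPM in LP ovaries (SD, n = 3 each), 2.02-fold higher in HP with a 95% interval of 0.804 to 5.05. The log2 fold change was 1.01 with an SE of 0.56 (adjusted p = 0.662, edgeR), and the exact permutation p was 0.1. Without LP5 the log2 fold change of ZAR1 was 0.57 (SE 0.24, adjusted p = 0.738, edgeR), so its size rested on that ovary. The spread also shrank, and the unadjusted edgeR p was 0.0595 without LP5, against 0.114 with all 6 ovaries.

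KPNA7, the importin, had 402, 615 and 652 CPM in HP1, HP2 and HP3, against 491, 362 and 539 CPM in LP4, LP5 and LP6. HP2 and HP3 were the highest ovaries, and HP1 lay among the LP ovaries. KPNA7 averaged 556 ± 135 CPM in HP ovaries and 464 ± 91.5 CPM in LP ovaries (SD, n = 3 each). The log2 fold change was 0.26 with an SE of 0.23 and a 95% interval of -0.29 to 0.81 (adjusted p = 0.779, edgeR).

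**Figure D1:**
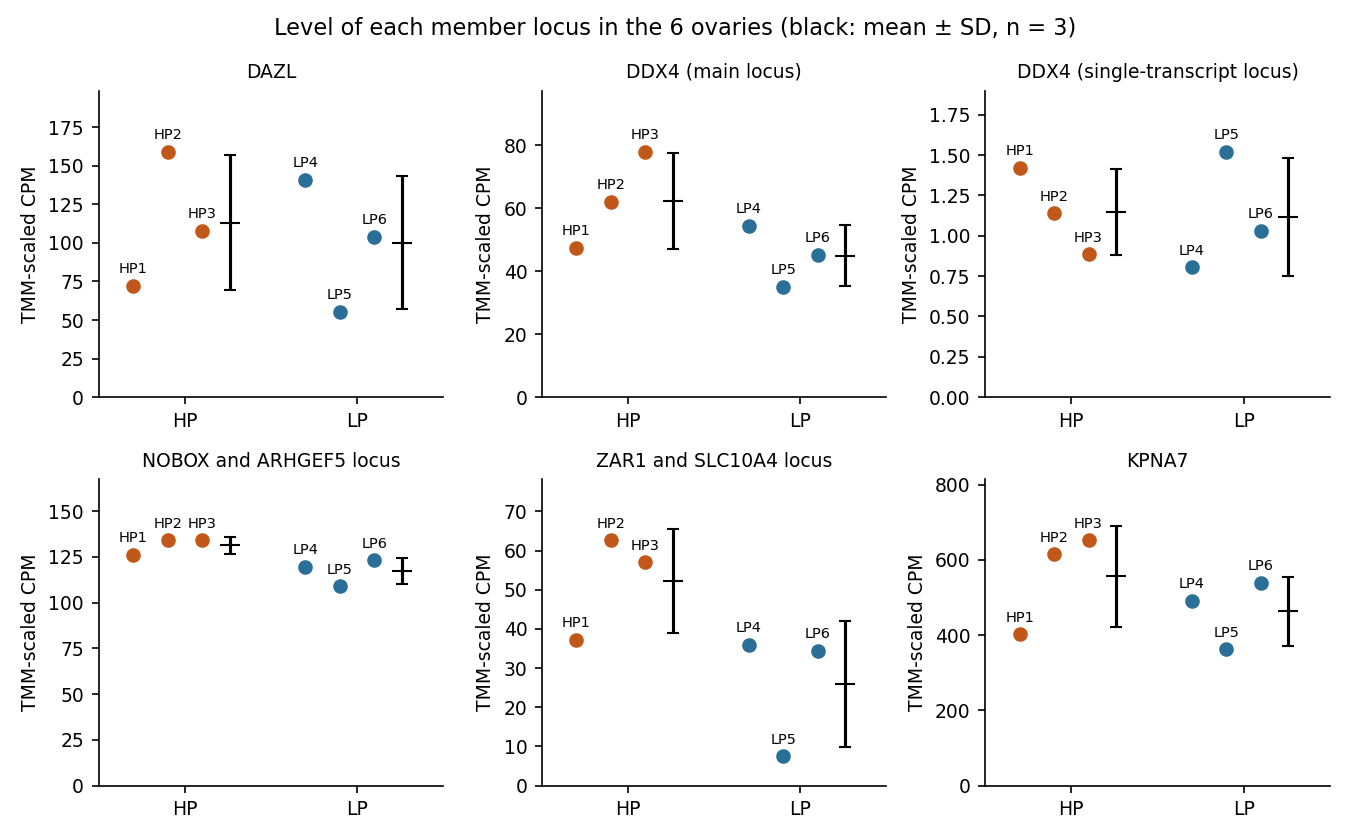
Level of each of the 6 loci in TMM-scaled CPM (vertical axis, linear, starting at 0) by group, with a point for each ovary and the mean ± SD in black (n = 3). Points of the groups overlap at DAZL, both DDX4 loci and KPNA7, while at the NOBOX and ZAR1 loci every HP ovary lies above every LP ovary, with LP5 at 7.51 CPM for ZAR1.

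**Figure D2:**
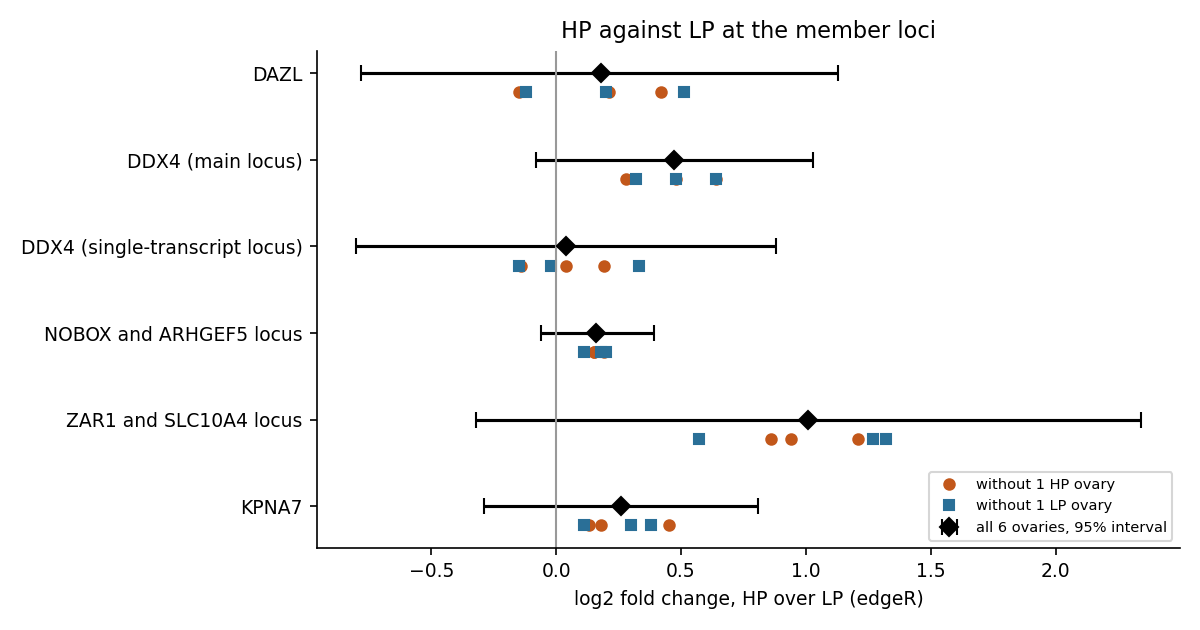
Log2 fold change of HP over LP from edgeR (horizontal axis) for each locus, with its 95% interval as a black bar and smaller points for the value without 1 HP ovary or 1 LP ovary. Every interval crosses 0, and points fall below 0 only at DAZL and the single-transcript DDX4 locus.

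The FPKM values deposited beside the counts were not used to compare levels between these genes. The ratio of count to FPKM implied a length of 1741 to 1790.2 bases for DAZL and 2339 to 2406 bases for DDX4. Shorter lengths were implied for KPNA7 (592 to 609 bases), the NOBOX locus (239.9 to 247 bases) and the ZAR1 locus (265 to 272 bases). Within a locus the implied length was nearly the same in every ovary, so it does not alter comparisons between ovaries. Which parts of the NOBOX and ZAR1 loci gave their counts was not tested.

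The 6 loci differed in how much they varied among birds. Over all 6 ovaries the coefficient of variation of CPM was 49.9% for the ZAR1 locus, 36.9% for DAZL, 27.8% for DDX4 and 22.5% for KPNA7, each above the median of loci of like abundance (12.4% to 15.1% over loci within 2-fold of the mean). The NOBOX locus was below it, with 7.47% against 12.6%. The highest ovary exceeded the lowest by 8.34 times at the ZAR1 locus, 2.87 times at DAZL, 2.22 times at DDX4, 1.8 times at KPNA7 and 1.23 times at the NOBOX locus.

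The order of the ovaries was much alike between the genes, taking the main locus of each. LP5 was the lowest ovary for all 5 genes. HP1 was the lowest HP ovary for all 5, and the highest ovary was HP2 or HP3 for all 5. The difference between the group means was smaller than the SD of either group at DAZL, and smaller than the SD of the HP ovaries at KPNA7.

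Pearson's r of log2 CPM over the 6 ovaries was positive for all 10 pairs of these 5 loci, between 0.64 and 0.94 with a median of 0.82. By exact permutation of the pairings, 7 of the 10 pairs had an unadjusted p under 0.05. The 10 pairs are made from 5 loci and so are not independent. The share among pairs of other tested loci was not determined, so this count does not set these genes apart. None of the 10 had an adjusted p under 0.05 over the 15 pairs that include the smaller DDX4 locus, the smallest adjusted permutation p being 0.0799. The values come from the same 6 libraries. The r of deviations from the group means had a median of 0.83 (0.76 to 0.95), so these loci also varied together within groups. This r has no test and includes HP1 and LP5, the lowest ovaries of their groups at all 5 loci. The order of HP2 and HP3, and that of LP4 and LP6, differed between the loci. Without the 2 ovaries farthest from the median of the first gene of each pair, the median r was 0.54, with a range of -0.32 to 0.91.

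The closest pair was the NOBOX and ZAR1 loci, with r = 0.94 (exact permutation p = 0.00833, adjusted p = 0.0799) and Spearman's rho of 0.89 (exact permutation p = 0.0333, adjusted p = 0.175). This r was 0.91 without HP3 and LP5. For DDX4 and the ZAR1 locus r was 0.86 (exact permutation p = 0.0208, adjusted p = 0.0799), rho was 0.89 (exact permutation p = 0.0333, adjusted p = 0.175), and r was 0.85 without the same ovaries. For DAZL the r of deviations from the group means was 0.77 with DDX4, 0.84 with the NOBOX locus, 0.88 with the ZAR1 locus and 0.81 with KPNA7. Its r over all 6 ovaries with the ZAR1 locus was 0.79 (exact permutation p = 0.0319, adjusted p = 0.0799), with rho of 0.71 (exact permutation p = 0.136, adjusted p = 0.227). That r was 0.04 without HP2 and LP5 and rests on those ovaries. The r of DAZL with the NOBOX locus was 0.64 (exact permutation p = 0.16, adjusted p = 0.184), with rho of 0.49 (exact permutation p = 0.356, adjusted p = 0.41), and was -0.32 without HP2 and LP5. With KPNA7 it was 0.81 (exact permutation p = 0.0569, adjusted p = 0.107), with rho of 0.71 (exact permutation p = 0.136, adjusted p = 0.227), and 0.51 without the same ovaries. The smaller DDX4 locus ran against the rest, with r of -0.76 to -0.41 in its 5 pairs, none with an unadjusted exact permutation p under 0.05.

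**Figure D3:**
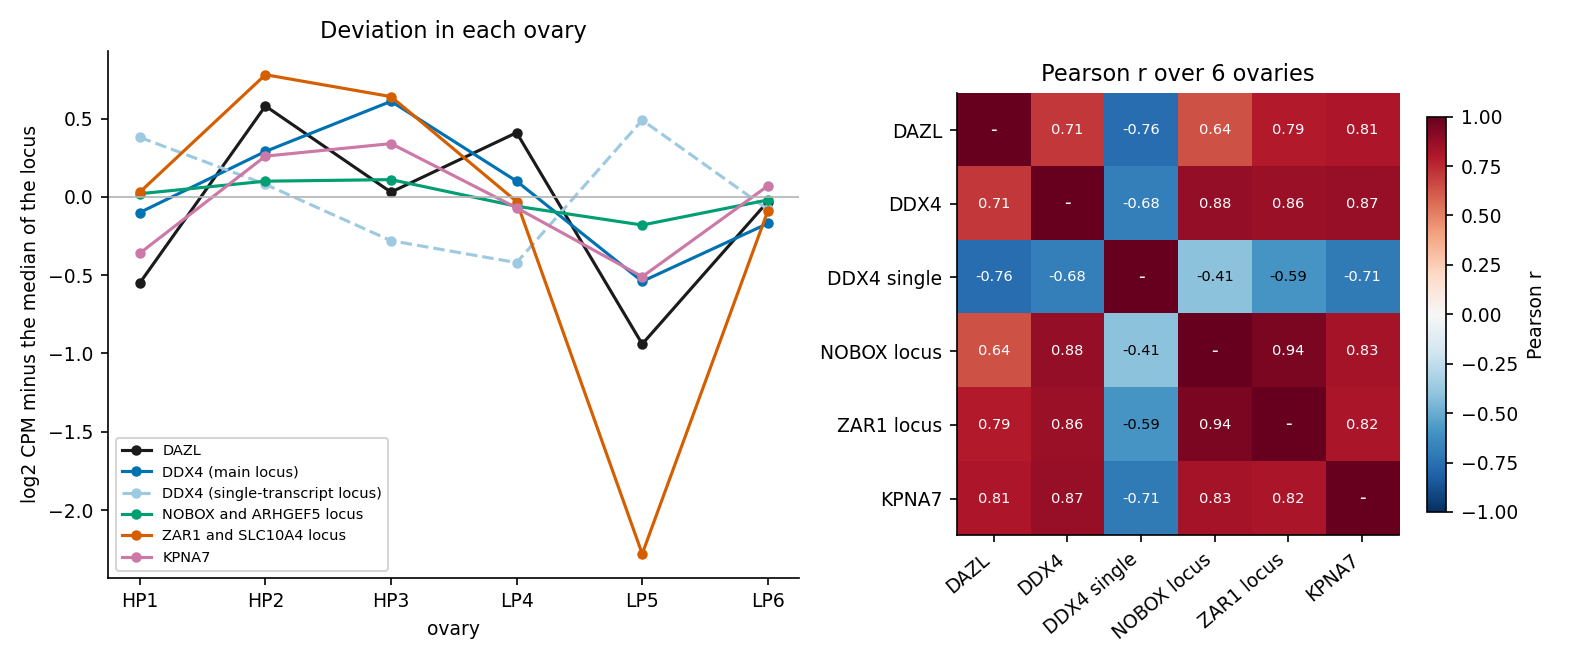
Left, log2 CPM of each locus minus its median over the ovaries (vertical axis) in each of the 6 ovaries (horizontal axis). Right, Pearson's r between loci over the 6 ovaries on a colour scale of -1 to 1. The lines of the 5 main loci dip together in LP5, most at the ZAR1 locus with -2.28, and the dashed line of the single-transcript DDX4 locus is highest there.

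Ratios between the genes within an ovary showed which of them kept step. The count of DDX4 per count of KPNA7 was 0.118, 0.101 and 0.12 in HP1, HP2 and HP3, against 0.111, 0.0967 and 0.0841 in LP4, LP5 and LP6, a range of 1.42 times. The count of DAZL per count of DDX4 was 1.52, 2.56 and 1.39 in the HP ovaries, against 2.59, 1.58 and 2.29 in the LP ovaries. This ratio was high in HP2, LP4 and LP6 and so did not follow the groups. The ZAR1 locus per count of KPNA7 gave 0.0927, 0.102 and 0.0875 in the HP ovaries, against 0.0731, 0.0207 and 0.0638 in the LP ovaries. Every HP ovary was above every LP ovary in this ratio, as in the CPM of the locus. Against the other genes this held only for DAZL. DAZL per count of the ZAR1 locus was at most 2.54 in HP ovaries (HP2) and at least 3.01 in LP ovaries (LP6). DDX4 per count of the ZAR1 locus overlapped between groups, with 1.37 in HP3 and 1.32 in LP6. The NOBOX locus per count of the ZAR1 locus overlapped too, with 3.38 in HP1 and 3.33 in LP4.

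GDF9, BMP15, ZP1 and ZP2 were grouped as a list of oocyte products. Their summed level was 682, 1010.2 and 1068 CPM in HP1, HP2 and HP3, against 812, 678 and 840.5 CPM in LP4, LP5 and LP6, and ZP2, an egg coat glycoprotein, made 77.9% to 83.6% of the sum, which is thus mainly a measure of ZP2. In this sum HP2 and HP3 were high and HP1 and LP5 low, which is the order of KPNA7. BMP15 did not share this order, with 40.4, 48.3 and 69.0 CPM in HP1, HP2 and HP3, against 52.8, 62.4 and 63.9 CPM in LP4, LP5 and LP6, so that LP5 was among its higher ovaries. Nor did the main GDF9 locus share it. That locus had 86.7, 99.5 and 126 CPM in the HP ovaries, against 83.0, 87.3 and 105 CPM in the LP ovaries, lowest in LP4. ZP1 had 17.1 CPM in HP2 and at most 0.111 CPM in the other ovaries. ZP2 had at least 528 CPM in every ovary. ZP1 thus added almost nothing to the sum outside HP2, and whether pigeon oocytes make it was not tested. Per 100 counts of the list, KPNA7 had 58.9, 60.9 and 61.0 in the HP ovaries, against 60.5, 53.5 and 64.2 in the LP ovaries, a range of only 1.2 times. Per 100 of the same counts DDX4 had 6.8 ± 0.592 in HP ovaries and 5.76 ± 0.83 in LP ovaries, and DAZL had 12.1 ± 3.1 in HP ovaries and 12.6 ± 4.61 in LP ovaries (SD, n = 3 each). The ZAR1 locus had 5.46, 6.2 and 5.34 in the HP ovaries, against 4.42, 1.11 and 4.1 in the LP ovaries, so HP lay above LP on this scale too. The NOBOX locus, which did not overlap between groups in CPM, did so here, with 18.4, 13.2 and 12.6 in the HP ovaries against 14.7, 16.1 and 14.6 in the LP ovaries. This scaling was chosen after the values were seen and has no test.

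Markers of other ovarian cells also differed between the ovaries, and the stroma and smooth muscle lists were highest in LP5, where the 5 genes were lowest. The summed level of the stroma list (COL1A1, COL1A2, COL3A1, DCN, LUM and PDGFRA, 6 of 6 symbols found) was 2458, 1448 and 1837 CPM in HP1, HP2 and HP3, against 2845, 3178 and 2558 CPM in LP4, LP5 and LP6. In this sum all HP ovaries lay below all LP ovaries, LP5 was the highest ovary and HP1 the highest of the HP ovaries. For the 5 genes LP5 was the lowest ovary and HP1 the lowest of the HP ovaries. Taken singly, COL1A1 and LUM also had all HP ovaries below all LP ovaries. COL1A2, COL3A1, DCN and PDGFRA overlapped between groups, COL3A1 with 907 CPM in HP1 and 849.7 CPM in LP6. The smooth muscle list (3 of 5 symbols found) summed to 624, 299 and 671 CPM in the HP ovaries, against 1219, 2595 and 389 CPM in the LP ovaries, with LP5 again the highest. The granulosa list (6 of 8 symbols found) summed to 486 to 1006 CPM in HP ovaries and 735 to 913 CPM in LP ovaries, lowest in HP1. This sum is mainly a measure of AMH and FOXL2, which were lowest in HP1, AMH with 153 CPM against 603 CPM in HP3. FSHR went the other way and was highest in HP1 at both of its loci, with 23.4 and 7.54 CPM. The endothelium list (4 of 4 symbols found) summed to 157, 158 and 192 CPM in the HP ovaries, against 199, 246 and 169 CPM in the LP ovaries, and the blood and leukocyte list (5 of 5 symbols found) to 231 to 383 CPM in HP ovaries and 273 to 305 CPM in LP ovaries. Of the theca list only STAR was found, at 6.0 to 10.6 CPM in HP ovaries and 6.6 to 14.5 CPM in LP ovaries. The part of these cells in the levels of the 5 genes was not tested.

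**Figure D4:**
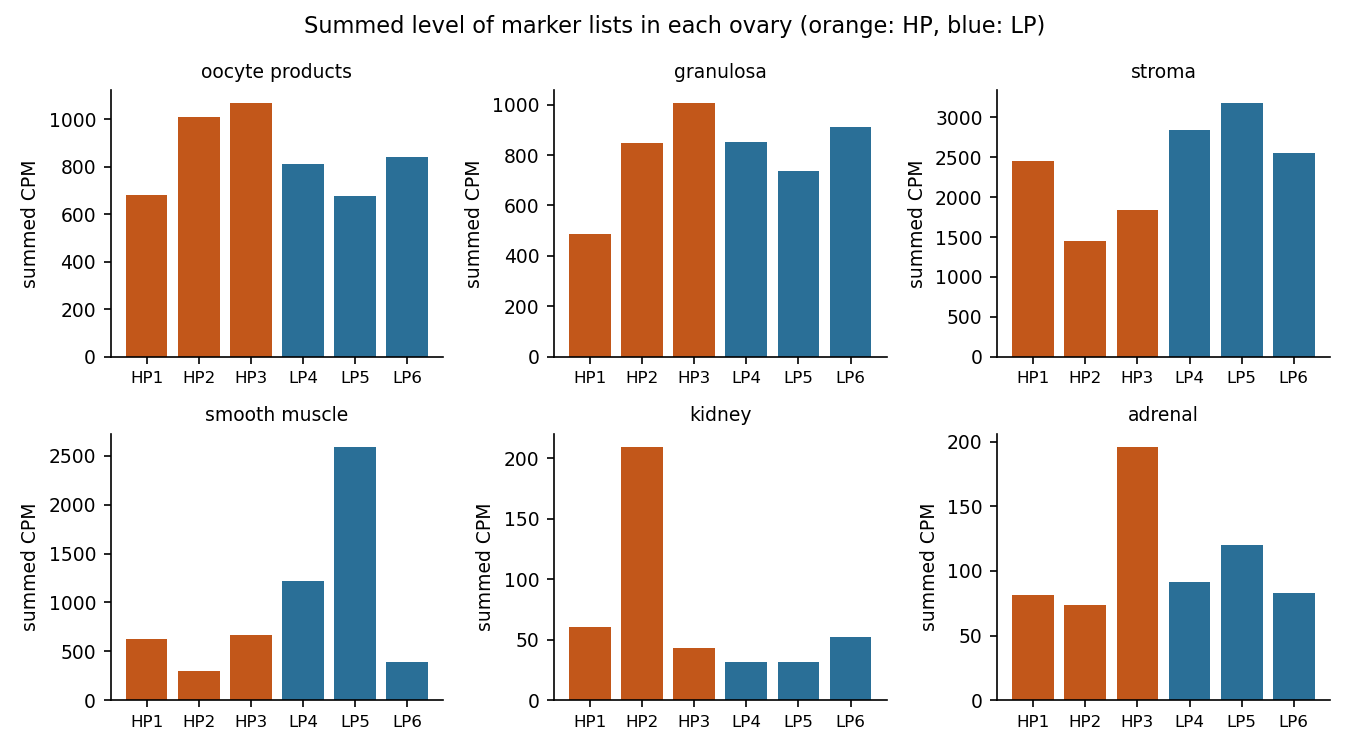
Summed CPM of 6 marker lists (vertical axes, linear from 0) in each ovary, with HP ovaries in orange and LP ovaries in blue. The oocyte product sum is lowest in LP5 and HP1, the stroma sum is at least 2558 CPM in the LP ovaries and at most 2458 CPM in the HP ovaries, and the kidney list stands out in HP2.

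Markers of organs next to the ovary differed between libraries. The kidney list (6 of 8 symbols found) summed to 60.7, 209.5 and 43.2 CPM in HP1, HP2 and HP3, against 31.9, 31.2 and 52.2 CPM in LP4, LP5 and LP6. SLC12A1, a salt cotransporter of the kidney, had 19.9 CPM in HP2 and at most 0.617 CPM in the other ovaries. The adrenal list (5 of 7 symbols found) was highest in HP3 with 196 CPM, followed by LP5 with 120.1 CPM, against 73.9 to 91.4 CPM in the other ovaries. DBH, an enzyme that makes noradrenaline, had 8.8 CPM in HP3 and 5.01 CPM in LP5, and 1.13 to 1.36 CPM elsewhere. Without HP2 the log2 fold changes were -0.15 for DAZL, 0.48 for DDX4, 0.15 for the NOBOX locus, 0.86 for the ZAR1 locus and 0.18 for KPNA7. Without HP3 they were 0.21 for DAZL, 0.28 for DDX4, 0.15 for the NOBOX locus, 0.94 for the ZAR1 locus and 0.13 for KPNA7. Without LP5 they were -0.12 for DAZL, 0.32 for DDX4, 0.11 for the NOBOX locus, 0.57 for the ZAR1 locus and 0.11 for KPNA7. DAZL was the only one of these 5 loci to change sign, without HP2 and without LP5.

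Genes that act beside these 5 were taken from 5 lists of 48 symbols, of which 39 were found in 45 loci and 44 of these were tested. Of the 44 loci, 31 had a log2 fold change above 0, against 49.0% of all tested loci. Their median was 0.15, against -0.01 for all tested loci. At an unadjusted p under 0.05, 9 were higher in HP ovaries, against 4.74% of the tested loci, and 2 were lower, against 3.5%. The lists were chosen with earlier results of these data known, and their loci come from the same ovaries. These counts are therefore a description and not a test of the lists. With edgeR or limma 0 had an adjusted p under 0.05, and with DESeq2 1 did, BOLL. Over all loci DESeq2 called 407 at this limit, against 3 with edgeR. The count of 9 was 4 without HP2 and 5 without HP3. It includes ZP1, with 1721 counts in HP2 and at most 11 in any other ovary. It also includes the smaller BTG4 locus, with at most 91 counts in an ovary.

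Of the 16 tested loci for germ cell RNA proteins, 3 were higher in HP and 0 lower at an unadjusted p under 0.05. BOLL, the closest relative of DAZL in this list, had 75.9, 72.0 and 84.8 CPM in HP1, HP2 and HP3, against 45.5, 46.5 and 55.6 CPM in LP4, LP5 and LP6. All HP ovaries lay above all LP ovaries and, unlike DAZL, the groups were tight. Its log2 fold change was 0.66 (SE 0.13, unadjusted p = 0.00142, adjusted p = 0.551, edgeR), and the unadjusted p stayed under 0.05 without any 1 ovary. DESeq2 gave BOLL an adjusted p of 0.00523. PIWIL1, an Argonaute protein that binds piRNAs, had a log2 fold change of 0.35 (SE 0.11, adjusted p = 0.584), and TDRD1, a Tudor protein of germ granules, one of 0.54 (SE 0.19, adjusted p = 0.586). The PIWIL1 value lost its unadjusted p under 0.05 without HP2, HP3 or LP6, and the TDRD1 value without any 1 ovary other than HP1. TDRD6, a Tudor protein named for its high counts, had 278 ± 63.5 CPM in HP ovaries and 282 ± 36.5 CPM in LP ovaries (SD, n = 3 each). PUM2, named for the same reason, had 164 ± 49.3 CPM in HP ovaries and 188 ± 67.3 CPM in LP ovaries, highest in LP5 with 257 CPM. Of the 16 loci, 10 had a log2 fold change above 0, and the median of the list was 0.05.

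Among the 5 loci for oocyte transcription, LHX8, a LIM homeobox factor needed for oocytes in mouse, had 92.4, 148 and 114 CPM in HP1, HP2 and HP3, against 79.6, 69.2 and 72.9 CPM in LP4, LP5 and LP6. Its log2 fold change was 0.67 (SE 0.18, unadjusted p = 0.00789, adjusted p = 0.572, edgeR). TBPL2, a TATA-box binding protein relative used in growing mouse oocytes, shared its locus with ATG14. This locus had 72.0, 91.2 and 74.3 CPM in the HP ovaries, against 50.6, 55.5 and 58.1 CPM in the LP ovaries, a log2 fold change of 0.53 (SE 0.13, adjusted p = 0.56). Both values kept an unadjusted p under 0.05 without any 1 ovary. FOXO3, which holds primordial follicles dormant in mouse and is also made in many other cells, was lower in HP at its larger locus, with 485, 481 and 451 CPM in the HP ovaries, against 594, 976 and 619 CPM in the LP ovaries. That log2 fold change was -0.63 (SE 0.20, unadjusted p = 0.0197, adjusted p = 0.584, edgeR), and it lost the unadjusted p without HP3. The smaller FOXO3 locus had 148, 128 and 109.6 CPM in the HP ovaries, against 126, 295 and 139 CPM in the LP ovaries. There the groups overlapped, and the log2 fold change was -0.54 (SE 0.34, adjusted p = 0.694, edgeR). LP5 was the highest ovary at both FOXO3 loci, as for the stroma list.

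Of the 11 loci for maternal RNA and egg maturation, 3 were higher and 1 lower in HP at an unadjusted p under 0.05. ZAR1L, the paralogue of ZAR1 with a locus of its own, had 223, 299 and 212 CPM in HP1, HP2 and HP3, against 177, 145 and 166 CPM in LP4, LP5 and LP6. Its log2 fold change was 0.59 (SE 0.16, unadjusted p = 0.0089, adjusted p = 0.572, edgeR), and the unadjusted p stayed under 0.05 without any 1 ovary. LP5 was the lowest ovary for ZAR1L, as for the ZAR1 locus, but stood much closer to the other LP ovaries. EIF4ENIF1, a repressor of translation that binds eIF4E, had 402 ± 38.2 CPM in HP ovaries and 322 ± 26.4 CPM in LP ovaries (SD, n = 3 each), and lost the unadjusted p without HP2, HP3, LP4 or LP5. The smaller BTG4 locus had only 30, 91 and 38 counts in the HP ovaries, against 5, 0 and 18 in the LP ovaries, while the main BTG4 locus had a log2 fold change of 0.29 (SE 0.21). BTG4 recruits the deadenylase that clears maternal messenger RNAs in mouse. WEE2, a kinase that holds the oocyte in meiotic arrest, gave -0.61 (SE 0.17, unadjusted p = 0.00958, adjusted p = 0.572, edgeR) at its smaller locus. There all HP ovaries lay below all LP ovaries, and the unadjusted p stayed under 0.05 without any 1 ovary. The larger WEE2 locus gave 0.07 (SE 0.16).

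Of the 7 other importin genes, none had an unadjusted p under 0.05. KPNA2 had 316 ± 62.4 CPM in HP ovaries and 274 ± 76.2 CPM in LP ovaries, and KPNA4 had 312 ± 23.5 CPM in HP ovaries and 269 ± 28.7 CPM in LP ovaries (SD, n = 3 each). KPNA1 did not overlap between groups and was lower in HP, with a log2 fold change of only -0.08 (SE 0.09). Among the egg coat and oocyte growth factor genes, ZP2 had a log2 fold change of 0.28 (SE 0.20), GDF9 one of 0.18 (SE 0.17) at its main locus, and BMP15 one of -0.18 (SE 0.21). ZP1 had an unadjusted p of 0.0421 from 1 ovary, with counts of 4, 1721 and 6 in HP1, HP2 and HP3, against 8, 11 and 0 in LP4, LP5 and LP6. HP2 was also the library with the high kidney list.

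**Figure D5:**
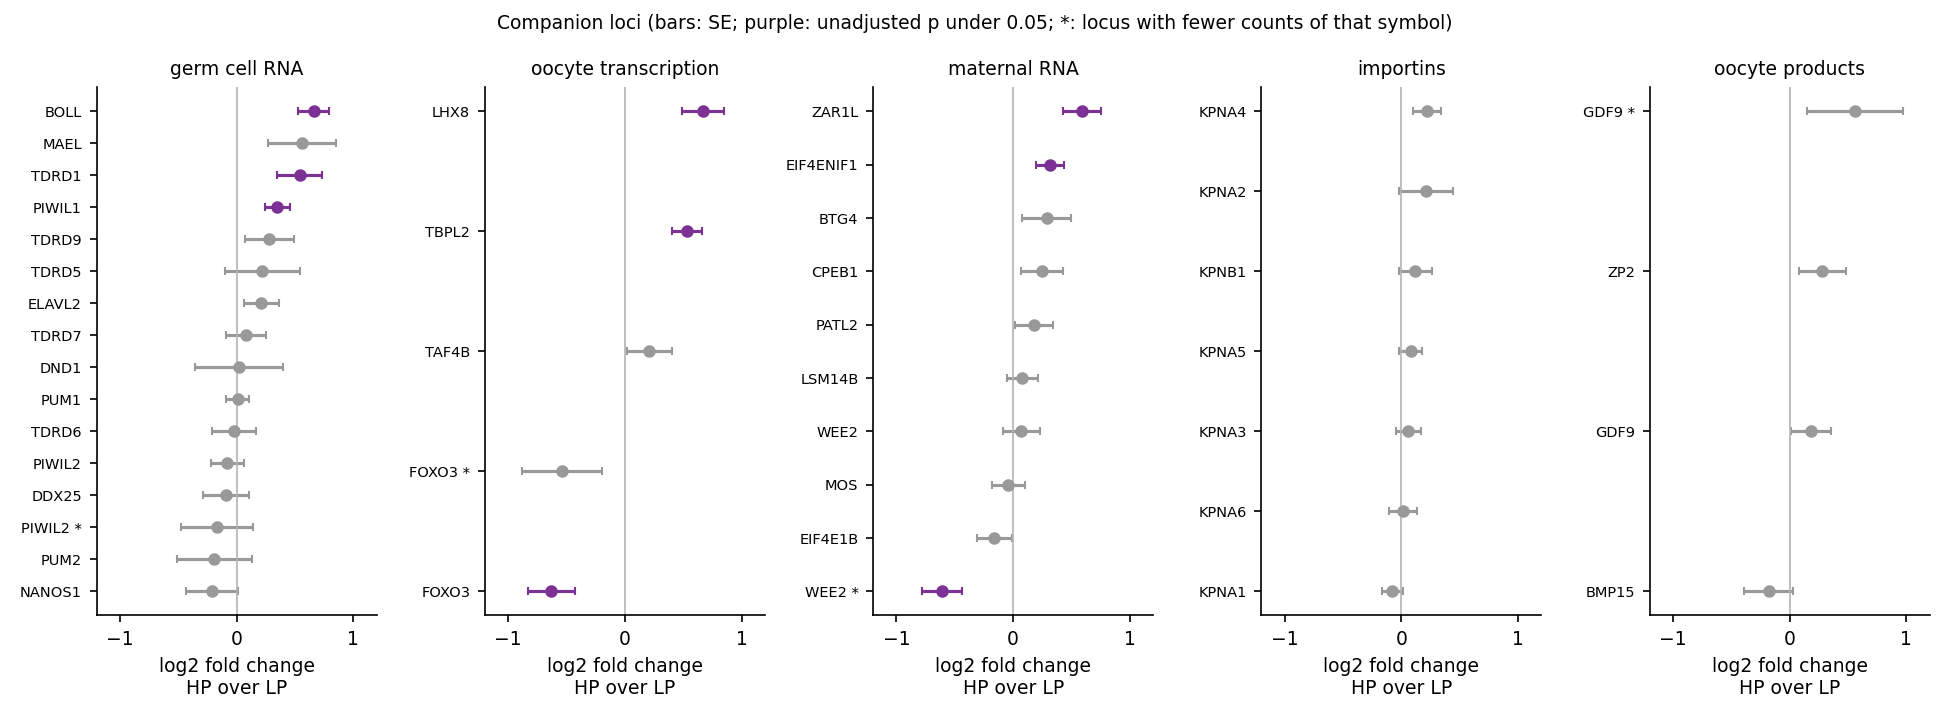
Log2 fold change of HP over LP (horizontal axis, bars for the SE) for the loci of the 5 lists, in purple where the unadjusted p was under 0.05. ZP1 at 6.46 and the smaller BTG4 locus at 2.77 lie outside the axis and are not drawn. Most points lie right of 0, with BOLL, LHX8 and ZAR1L between 0.59 and 0.67, while FOXO3 and the smaller WEE2 locus lie left of it.

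Over the 6 ovaries, the loci with a gene name most like each of these genes in log2 CPM were found among 19030 loci of at least 1 CPM. With 6 points such likeness is common, and 136 loci for DAZL, 466 for DDX4, 350 for the NOBOX locus, 338 for the ZAR1 locus and 256 for KPNA7 reached an r of at least 0.9. The closest were LOC110363475 (0.999), HMG20B, USP54, MGME1 and LOC110363295 to DAZL. For DDX4 they were COPS8 (0.997), LOC102092343, MAL, LOC102087882 and API5. For the smaller DDX4 locus they were ING4 (0.998), BHLHA15, ERBB2, GALNT14 and GALK1. The NOBOX locus was closest to the shared locus of NASP and AKR1A1 (0.992), then to SH3GL2, TRMT1L, MAL2 and CCSER1. The ZAR1 locus was closest to LOC102097296 (0.997), LOC110358834, NXN, NUFIP1 and LOC102084190. KPNA7 was closest to SNF8 (0.994), NELFB, C1GALT1, STK32A and NEFL. The mean of the standardized levels of the 5 genes was closest to TRIM66 (0.999), SAAL1, CCNJ and INPP4B. No gene stood in more than 1 of these lists.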

How the data were processed

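RNA-seq libraries of 6 pigeon ovaries, 3 HP and 3 LP, were grouped by their labels. Per the submitters' notes and the methods, reads were trimmed with cutadapt 1.9, checked with FastQC 0.10.1, mapped to Cliv_1.0 with Bowtie2 and HISAT2 2.0.4, and assembled and quantified with StringTie 1.3.4 and Ballgown. For every locus the authors deposited a raw count, which is a whole number, and an FPKM value. How the counts were made is not given in the sources used here. In the table a locus combines its transcripts, so merged genes share 1 value.

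Loci averaging an FPKM of 0.1 or more were tested on their counts with edgeR 4.0.16 (TMM factors, quasi-likelihood, two-sided, no covariates) in R 4.3.3, with Benjamini-Hochberg adjustment over all 28274 loci. Pairs of loci were compared by exact permutation of 6 ovaries (720 orders). Alternatives were RLE factors, no filter, DESeq2 1.42.0, limma 3.58.1 on log2(FPKM + 1) and log2(FPKM + 0.1), and leaving out each ovary. Figures were drawn with matplotlib 3.10.9 in Python 3.11.15.

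The members and lists were chosen with earlier results of these data known. Every member locus is given. Of the lists, loci with an unadjusted p under 0.05 or groups that do not overlap are named, and otherwise at most the 2 most abundant per list. The main BTG4 locus and BMP15 fall outside this rule and were named after their values were seen. The 5 loci most like each member are named, except 1 that is not reported here.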

Additional observations from a re-analysis of the deposited data

How the results depend on the processing

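Of 66 results for the 6 loci under 11 alternatives each, 61 kept the sign of the fold change and 5 changed it. DAZL gave -0.15 without HP2 and -0.12 without LP5, within -0.15 to 0.51 when 1 ovary was left out. The smaller DDX4 locus gave -0.14 without HP1, -0.15 without LP4 and -0.02 without LP6, within -0.15 to 0.33. No adjusted p of these loci was below 0.445 (the ZAR1 locus with DESeq2). An unadjusted p under 0.05 was found in 3 of the 66. With edgeR these were 0.0296 for DDX4 without HP1 and 0.0461 for DDX4 without LP4. With DESeq2 it was 0.046 for the ZAR1 locus. The number of loci with an adjusted p under 0.05 was 3 with edgeR, 407 with DESeq2, 6 with limma on log2(FPKM + 1), 5 with limma on log2(FPKM + 0.1), and 0 to 7 when 1 ovary was left out, with 0 without LP6, 5 without HP3 and 7 without LP4. The number with an unadjusted p under 0.05 was 2330, and 1467 to 2574 when 1 ovary was left out, lowest without HP2. Loci of the 5 lists higher in HP numbered 9, and 4 to 11 when 1 ovary was left out, and those lower in HP numbered 2, and 1 with limma on log2(FPKM + 0.1). The median r between the 5 main loci was 0.82, and 0.70 to 0.91 when 1 ovary was left out, lowest without LP5. The cause of these changes was not tested. No paired analysis was made, because the sources used here describe no pairing between HP and LP birds. With 3 birds in a group, the intervals of DAZL, the main DDX4 locus and the ZAR1 locus span from lower in HP to over 2-fold higher in HP. They therefore hold both no difference and a difference of 2-fold.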
